A study of Homo sapiens with 4 samples.

Results

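The snoRNA host genes are a group of long noncoding RNA genes that carry small nucleolar RNAs (snoRNAs) in their introns. They were taken from the deposited expression table by name: every row whose symbol is SNHG (small nucleolar RNA host gene) followed by digits only, plus GAS5, EPB41L4A-AS1, ZFAS1 and DANCR. This gave 28 of the 43622 genes in the table. A mean of at least 0.1 TPM (transcript abundance corrected for length and scaled to the same sum in every library) over the 12 libraries was reached by 26 of them, and these 26 were tested. The other 2 are listed only: SNHG27 was listed at 0 in all 12 libraries, and SNHG22 at 0 to 0.116 TPM.

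RNA-seq was carried out on PC3 cells, an established human prostate adenocarcinoma line, in 4 conditions with 3 libraries each. Control PC3 cells received the vehicle DMSO (Ctrl) or 1 µM MLN4924 (MLN), and PC3 cells depleted of p14ARF received DMSO (shARF) or 1 µM MLN4924 (Both), all for 3 days. MLN4924 inhibits the activation of NEDD8, the ubiquitin-like modifier that switches on cullin-RING ubiquitin ligases, and p14ARF is the nucleolar tumor suppressor encoded by the alternative reading frame of CDKN2A. The depleted cells carried a stably integrated retroviral short hairpin RNA and were selected with hygromycin, and no control hairpin is named for the Ctrl and MLN cells, so the hairpin, the integration and the selection cannot be told apart. The study asked which genes respond to MLN4924 and which of them depend on p14ARF. GEO lists 1 sample per condition, and nothing states whether the 3 libraries of a condition came from separate cultures, so p-values measure the spread between these libraries, which may be technical.

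CDKN2A, the gene targeted by the hairpin, had a mean of 183 TPM in Ctrl, 118 TPM in MLN, 59.3 TPM in shARF and 47.5 TPM in Both. The row sums all CDKN2A transcripts, including those of p16INK4A. Epithelial KRT8, KRT18 and EPCAM were present in all 12 libraries at 18.3 TPM or more, while the androgen-responsive KLK3 was listed at 0 throughout, and the leukocyte marker PTPRC reached at most 0.322 TPM. The endothelial marker PECAM1 ranged from 0.132 to 12.4 TPM, highest in Ctrl, and the fibroblast marker COL1A1 from 3.56 to 19.7 TPM, highest in MLN, and their part in the results was not tested. Libraries of the same condition correlated at r of 0.975 to 0.980 across genes. TPM values carry no read depth, so the depth behind each value is unknown.

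Most snoRNAs of human cells are cut out of introns. Box C/D snoRNAs guide 2′-O-methylation and box H/ACA snoRNAs guide pseudouridylation, mainly of ribosomal RNA, and scaRNAs do the same for spliceosomal RNAs in Cajal bodies. Many of the genes that host them code for ribosomal and translation proteins. The noncoding hosts described here make a spliced RNA with short or no reading frames, and for several of them, GAS5 being the classic case, translation of those frames sends the spliced RNA into nonsense-mediated decay (NMD). Many hosts also begin with a C followed by a run of pyrimidines (a 5′ terminal oligopyrimidine tract, or TOP), the feature through which mTOR and LARP1 govern the translation and stability of ribosomal protein mRNAs.

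RefSeq placed 141 snoRNA or scaRNA genes inside the 28 members, on the strand of the member wherever a strand was given. No strand was given for the 11 in GAS5 or for some in SNHG1 and SNHG5. Of the 141, 88 fell in introns of the transcript that GENCODE v44 (GRCh38) marks as canonical. SNHG14, the long transcript of the imprinted Prader-Willi and Angelman region on chromosome 15, held 83 of the 141. GAS5 held 11, SNHG1 held 8, SNHG12 and SNHG17 held 4 each, and SNHG16 and ZFAS1 held 3 each. No snoRNA was annotated inside SNHG28 or SNHG27. Of the 26 tested members, 9 held box C/D snoRNAs only, 10 held box H/ACA snoRNAs only, 3 held both kinds (GAS5, SNHG12 and SNHG25), 3 held a scaRNA (SNHG10, SNHG20 and SNHG21) and SNHG28 held none. For GAS5 the box H/ACA kind rests on SNORA103 alone, which overlaps an exon of the canonical transcript. The same holds for SNHG25 with SNORA50C and for SNHG15 with SNORA9, the only snoRNA inside SNHG15. All 28 are annotated as lncRNA genes.

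The sequence around the transcription start is shown because a start of the TOP kind is the feature that hosts of this class are known for. RefSeq (GRCh38.p14) gave a start region for 24 of the 28 members. Shown are the 12 of these that were among the 3 largest called changes in either direction in any comparison. Each line holds 90 bases of the strand that is transcribed, from 40 bases before the annotated start to 50 after it, and capitals mark a C followed by at least 4 pyrimidines that begins within 5 bases of the start. The first 7 have such a run at the RefSeq start, and the last 5 do not. They lie at chr20:49278602-49278691 (plus strand) for ZFAS1, chr1:28581824-28581913 (minus) for SNHG12, chr5:139274061-139274150 (plus) for SNHG4, chr6:85678684-85678773 (minus) for SNHG5, chr4:118278722-118278811 (plus) for SNHG8, chr5:9546160-9546249 (plus) for SNHG18, chr4:52712354-52712443 (plus) for DANCR, chr1:159854988-159855077 (minus) for SNHG28, chr15:24823568-24823657 (plus) for SNHG14, chr1:173868996-173869085 (minus) for GAS5, chr17:77088603-77088692 (plus) for SNHG20 and chr7:22854200-22854289 (plus) for SNHG26.
ZFAS1: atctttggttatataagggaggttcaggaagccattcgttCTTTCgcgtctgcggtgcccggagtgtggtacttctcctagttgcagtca
SNHG12: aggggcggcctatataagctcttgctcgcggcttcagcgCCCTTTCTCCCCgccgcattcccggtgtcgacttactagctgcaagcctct
SNHG4: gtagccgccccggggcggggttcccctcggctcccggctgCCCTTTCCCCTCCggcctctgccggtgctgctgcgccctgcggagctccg
SNHG5: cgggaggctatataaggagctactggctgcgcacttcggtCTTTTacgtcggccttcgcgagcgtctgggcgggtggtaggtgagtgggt
SNHG8: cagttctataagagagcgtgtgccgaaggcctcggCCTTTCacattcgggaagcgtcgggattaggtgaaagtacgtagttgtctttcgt
SNHG18: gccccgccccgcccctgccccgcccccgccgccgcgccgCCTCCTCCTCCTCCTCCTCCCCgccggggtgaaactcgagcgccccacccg
DANCR: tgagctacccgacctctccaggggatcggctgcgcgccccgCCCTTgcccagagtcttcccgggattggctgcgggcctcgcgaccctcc
SNHG28: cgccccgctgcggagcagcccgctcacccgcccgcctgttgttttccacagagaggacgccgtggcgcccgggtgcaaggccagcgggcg
SNHG14: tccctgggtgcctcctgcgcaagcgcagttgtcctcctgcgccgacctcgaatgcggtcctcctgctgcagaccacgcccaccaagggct
GAS5: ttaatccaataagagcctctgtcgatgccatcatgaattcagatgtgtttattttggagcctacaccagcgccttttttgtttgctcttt
SNHG20: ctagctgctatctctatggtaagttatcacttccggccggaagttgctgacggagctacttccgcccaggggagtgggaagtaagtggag
SNHG26: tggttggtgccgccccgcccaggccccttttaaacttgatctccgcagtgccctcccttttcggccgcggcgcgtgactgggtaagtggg

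A start of this kind was present in 11 of the 24 member promoters (45.8%) and in 21.1% of the 35116 promoters of RefSeq. The 300-base promoters, from 250 bases before the start to 50 after it, were also searched on both strands for other elements. The E-box CACGTG was found in 1 member (SNHG7) against 7.26% of all promoters, the CRE palindrome TGACGTCA in 0 against 1.85%, the E2F-type element TTTCGCGC or TTTGGCGC in 2 (SNHG1 and SNHG17) against 1.15%, and the antioxidant response core TGACNNNGC in 3 (SNHG27, SNHG4 and SNHG20) against 13.3%. These matches describe letters in a window and are not binding sites. RefSeq and GENCODE differ in the annotated start of some members, SNHG14 and GAS5 among them. For both of these genes the stretch shown lies wholly upstream of the GENCODE gene. It therefore does not show whether a pyrimidine run is present at the GENCODE start.

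The members spanned a wide range of levels. TPM is scaled by transcript length, which allows a rough comparison of levels between genes. The lengths used are not given in the sources used here, and reads shared with overlapping genes could shift the levels. In Ctrl the most abundant member was ZFAS1, named for its place antisense to the 5′ end of ZNFX1, at 360 ± 33.3 TPM (SD, n = 3), followed by SNHG16 at 292 ± 24.4 TPM and SNHG8 at 118 ± 4.91 TPM. SNHG1, SNHG6, GAS5, DANCR and SNHG19 came next in Ctrl at means between 54.3 and 72.1 TPM. Neighbours in that order did not separate: the libraries of SNHG1, SNHG6 and GAS5 lay between 59.6 and 77.9 TPM and overlapped with those of DANCR and SNHG19. Over all 12 libraries, 8 members had a mean of at least 50 TPM, 13 a mean between 10 and 50 TPM and 5 a mean between 0.1 and 10 TPM (SNHG28, SNHG18, SNHG26, SNHG14 and SNHG25). The plots of TPM by condition show 16 of the members.

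**Figure D1:**
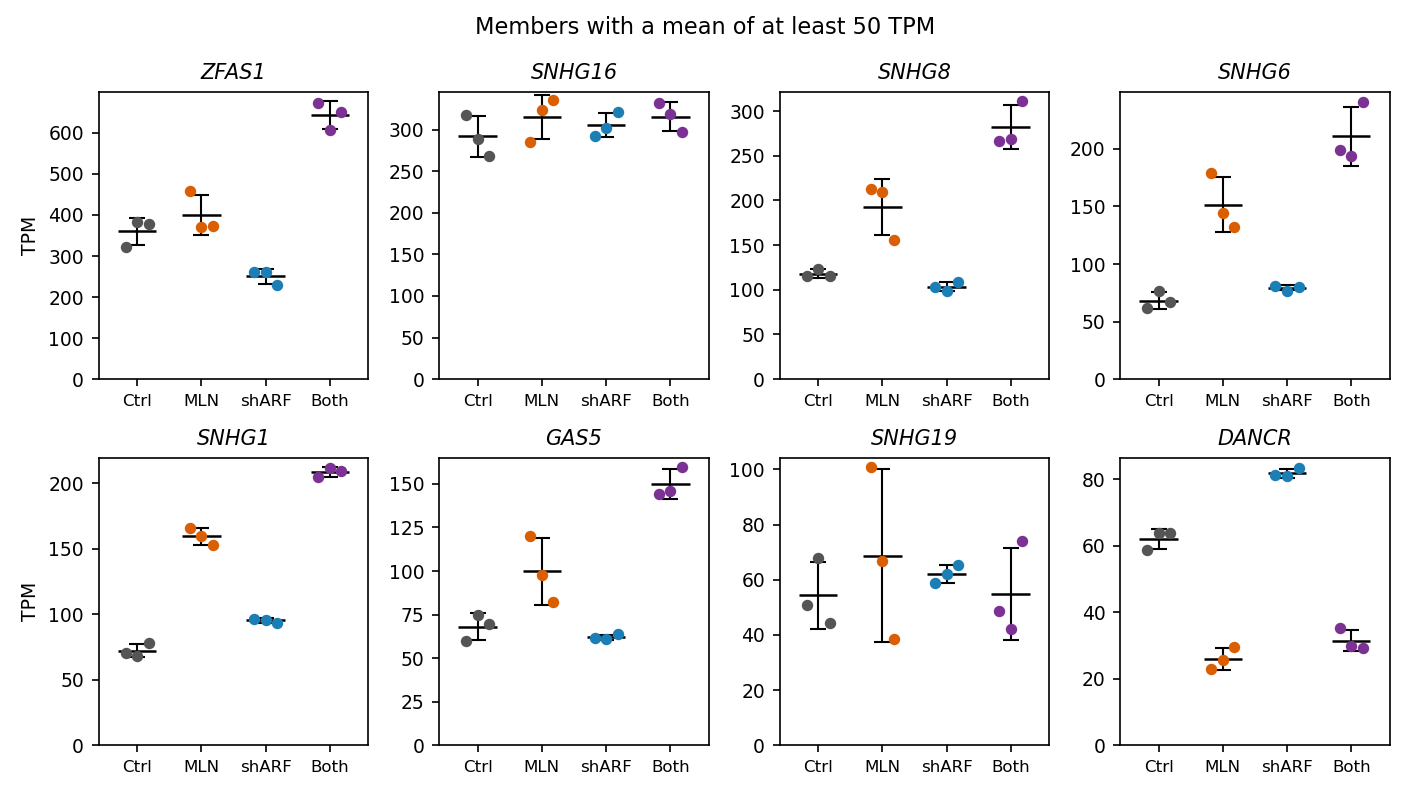
TPM (linear axis from 0) of the 8 members with a mean of at least 50 TPM in the 4 conditions. Points are libraries (3 per condition), horizontal lines are means and bars are ± 1 SD. SNHG1, SNHG6 and SNHG8 lie higher in both drug-treated conditions, DANCR lies lower in both, ZFAS1 stands apart in Both and SNHG16 stays between 269 and 336 TPM.

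**Figure D2:**
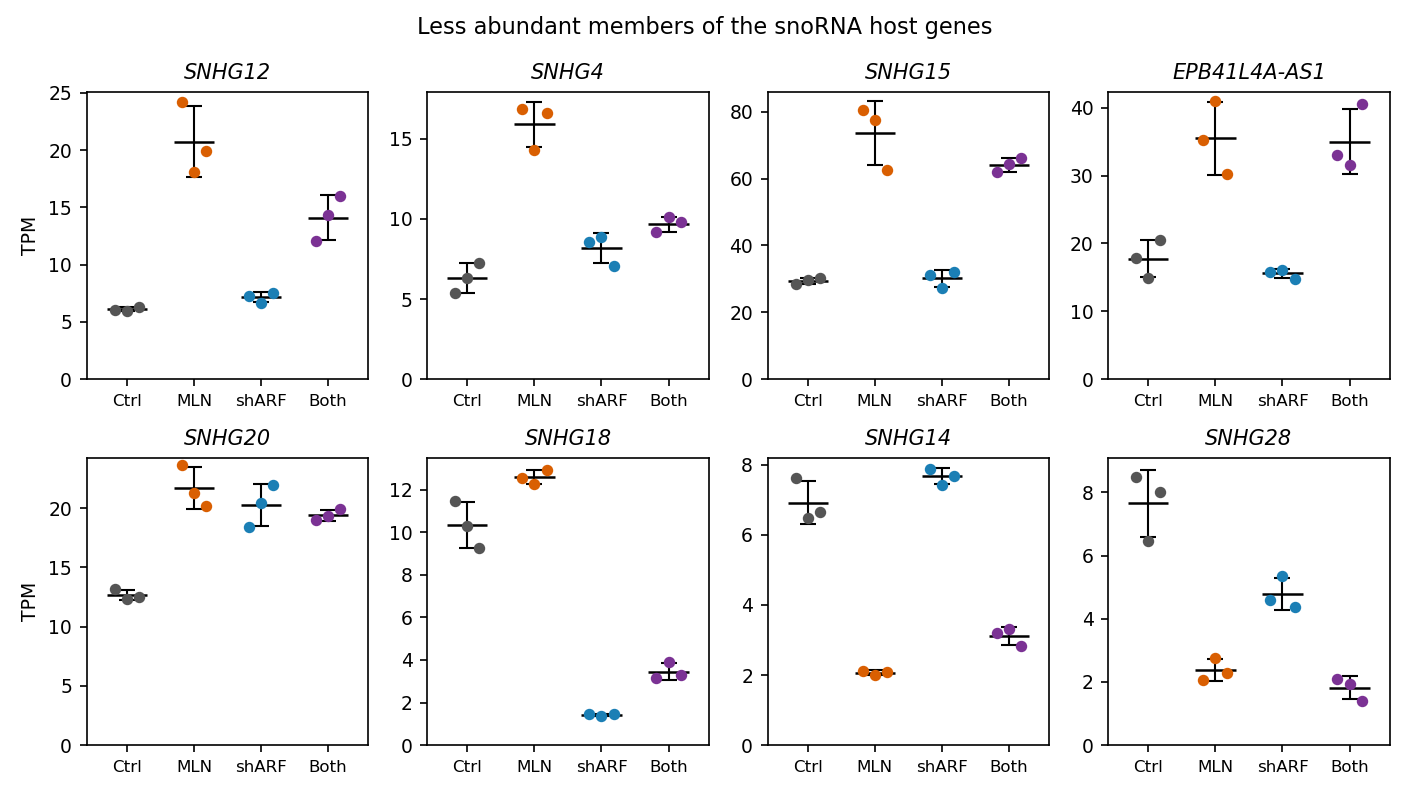
TPM (linear axis from 0) of 8 less abundant members in the 4 conditions, drawn as in the plot of the abundant members. SNHG12, SNHG4, SNHG15 and EPB41L4A-AS1 lie higher in MLN than in Ctrl, SNHG14 and SNHG28 lie lower, and SNHG18 is lowest in the shARF libraries.

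MLN was compared with Ctrl to ask what MLN4924 does in control PC3 cells. Of the 26 tested members, 17 rose and 3 fell (limma, adjusted p below 0.05), that is 65.4% higher and 11.5% lower. Over all 19932 genes tested, 32.2% were called higher and 29.4% lower. The median log2 fold change of the members was 0.67, against 0.05 over all genes tested. A change beyond 1 on the log2 scale in addition was reached by 7 of the 17 (SNHG1, SNHG12, SNHG15, SNHG26, SNHG3, SNHG4 and SNHG6) and by all 3 that fell, against 15.6% and 12.4% of all genes. In bulk RNA, a change in the share of cells that express a gene and a change in RNA per cell cannot be told apart.

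SNHG12, a host of 3 box H/ACA snoRNAs and 1 box C/D snoRNA, rose most. Its level was 6.06, 5.98 and 6.34 TPM in the Ctrl libraries and 24.2, 18.1 and 19.96 TPM in the MLN libraries. Every MLN library lay far above every Ctrl library, with a log2 fold change of 1.73 ± 0.11 (SE; 3.32-fold; adjusted p = 5.81e-05). SNHG4, which hosts 2 box H/ACA snoRNAs and lies inside the gene SIL1 on the opposite strand, had 5.35, 6.29 and 7.26 TPM in Ctrl and 16.9, 14.3 and 16.6 TPM in MLN (log2 1.33 ± 0.13, adjusted p = 0.000278). The groups did not overlap. SNHG15, with 28.5, 29.8 and 30.2 TPM in Ctrl and 80.6, 77.4 and 62.6 TPM in MLN, rose by a log2 of 1.31 ± 0.10 (adjusted p = 0.000103). SNHG26, one of the scarcer hosts, had 2.44, 3.59 and 3.93 TPM in Ctrl and 8.82, 8.36 and 7.41 TPM in MLN (log2 1.30 ± 0.19, adjusted p = 0.00154).

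Among the 8 most abundant members, 4 rose in MLN vs Ctrl (SNHG1, SNHG6, SNHG8 and GAS5), DANCR fell, and ZFAS1, SNHG16 and SNHG19 were not called. SNHG1, which carries 8 box C/D snoRNAs in its introns, went from 70.1, 68.3 and 77.9 TPM in Ctrl to 166, 160 and 153 TPM in MLN (2.21-fold, log2 1.15 ± 0.06, adjusted p = 3.45e-05). SNHG6, a host of 1 box C/D snoRNA, went from 61.8, 76.3 and 66.8 TPM to 179, 144 and 132 TPM (2.21-fold, log2 1.14 ± 0.13, adjusted p = 0.000555). These increases were close to each other in size, and in neither gene did the groups overlap. SNHG8, with 115, 124 and 116 TPM in Ctrl, reached 212, 209.6 and 156 TPM in MLN (1.62-fold, log2 0.69 ± 0.13, adjusted p = 0.00395). The less abundant EPB41L4A-AS1, a host of 1 box H/ACA snoRNA, had 17.8, 14.9 and 20.4 TPM in Ctrl and 35.3, 41.0 and 30.2 TPM in MLN (log2 1.00 ± 0.15, adjusted p = 0.0019). For both genes the lowest MLN library was above the highest Ctrl library.

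GAS5, named for its accumulation in growth-arrested cells, had 59.6, 75.0 and 69.5 TPM in Ctrl and 120.1, 97.7 and 81.9 TPM in MLN (1.46-fold, log2 0.54 ± 0.16, adjusted p = 0.0241). The groups did not overlap, but the lowest MLN and the highest Ctrl library were only a few TPM apart. The call was lost without Ctrl replicate 1, Ctrl replicate 3, MLN replicate 1 or MLN replicate 2 and without a filter on low values, with adjusted p reaching 0.106 over all alternatives. SNHG5 rose from 16.8, 21.7 and 19.2 TPM to 36.9, 34.4 and 26.7 TPM (log2 0.75 ± 0.15, adjusted p = 0.00545), and SNHG9 from 7.66, 10.3 and 7.996 TPM to 18.2, 16.1 and 13.4 TPM (log2 0.87 ± 0.16, adjusted p = 0.00383). SNHG20, a scaRNA host, rose from 13.2, 12.4 and 12.5 TPM to 23.7, 21.3 and 20.2 TPM (log2 0.77 ± 0.07, adjusted p = 0.000253). In these 3 genes the MLN libraries all lay above the Ctrl libraries. SNHG18 had the smallest called difference, 11.5, 10.3 and 9.27 TPM against 12.6, 12.3 and 12.9 TPM (log2 0.29 ± 0.09, adjusted p = 0.0326), and it was lost without any 1 of Ctrl replicates 2 and 3 and MLN replicates 1, 2 and 5. The other 4 that rose were SNHG3, from a mean of 23.4 to 50.1 TPM, SNHG11, from 27.1 to 42.4 TPM, SNHG7, from 13.4 to 21.0 TPM, and SNHG17, from 29.1 to 39.4 TPM.

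DANCR, SNHG14 and SNHG28 fell. DANCR, a host of 1 box H/ACA snoRNA known for restraining differentiation of progenitor cells, had 58.7, 63.9 and 63.8 TPM in Ctrl and 22.9, 25.5 and 29.4 TPM in MLN (0.417-fold, log2 -1.26 ± 0.10, adjusted p = 0.000108). SNHG14 had 7.62, 6.47 and 6.66 TPM in Ctrl and 2.13, 1.99 and 2.08 TPM in MLN (0.310-fold, log2 -1.69 ± 0.10, adjusted p = 4.55e-05). Every MLN library was under 30 TPM for DANCR and below every Ctrl library for both genes. SNHG28, in which no snoRNA is annotated, went from 8.50, 6.46 and 8.02 TPM to 2.07, 2.77 and 2.29 TPM (0.319-fold, log2 -1.65 ± 0.16, adjusted p = 0.000251), again without overlap.

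The remaining 6 members had overlapping MLN and Ctrl libraries and were not called. The most abundant member, ZFAS1, was among them, with 322, 382 and 377 TPM in Ctrl and 457, 370.5 and 372 TPM in MLN (log2 0.15 ± 0.11, adjusted p = 0.297). SNHG16 had 317, 289 and 269 TPM in Ctrl and 286, 324 and 336 TPM in MLN (log2 0.11 ± 0.09, adjusted p = 0.328). SNHG19 had 50.7, 67.8 and 44.4 TPM in Ctrl and 101, 66.8 and 38.4 TPM in MLN, so its spread within MLN was wider than the difference between the groups (log2 0.25 ± 0.36, adjusted p = 0.575). SNHG10, SNHG21 and SNHG25 had adjusted p of 0.694, 0.465 and 0.420. SNHG19 and SNHG25 have canonical transcripts of only 394 and 311 bases. Libraries did not overlap for 17 members that were higher and 3 that were lower, against 34.6% and 32.4% of all genes.

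Both was compared with shARF to ask what MLN4924 does in the p14ARF-depleted cells, and this comparison shares no library with MLN vs Ctrl. Here 14 of the 26 members rose and 4 fell (53.8% and 15.4%), against 28.3% and 32.8% of all genes tested, and the median log2 fold change was 0.42, against -0.04 over all genes. When TPM values were rescaled by median-of-ratios factors, 18 members were higher and 3 lower, and all genes split into 6407 higher and 5937 lower in place of 5636 and 6530. Beyond 1 on the log2 scale, 8 members rose (EPB41L4A-AS1, GAS5, SNHG1, SNHG15, SNHG18, SNHG6, SNHG8 and ZFAS1) and 3 fell, against 13% and 13.4% of all genes.

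SNHG8 rose most, from 103, 98.5 and 108 TPM in shARF to 267, 269 and 311 TPM in Both (2.72-fold, log2 1.44 ± 0.07, adjusted p = 2.29e-05). SNHG6 went from 80.8, 76.9 and 80.3 TPM to 199, 194 and 240.4 TPM (2.65-fold, log2 1.40 ± 0.09, adjusted p = 4.78e-05). The Both libraries of each lay at about the same distance above the shARF libraries. ZFAS1, not called in the control cells, had 260.5, 262 and 229 TPM in shARF and 673, 607 and 651 TPM in Both (2.57-fold, log2 1.36 ± 0.07, adjusted p = 2.6e-05), so that its lowest Both library exceeded every other library of the series. GAS5 went from 61.4, 61.1 and 63.7 TPM to 144, 146 and 159.9 TPM (2.41-fold, log2 1.27 ± 0.05, adjusted p = 9.93e-06), with no overlap. SNHG1 rose from 96.6, 95.9 and 93.2 TPM to 204, 211 and 209.6 TPM (2.19-fold, log2 1.13 ± 0.03, adjusted p = 3.75e-06), the smallest adjusted p of any member in this comparison.

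SNHG18 rose from a very low base, from 1.45, 1.35 and 1.46 TPM in shARF to 3.15, 3.89 and 3.29 TPM in Both (2.32-fold, log2 1.21 ± 0.13, adjusted p = 0.000382). Its Both libraries lay above shARF yet well under the Ctrl libraries. EPB41L4A-AS1 went from 15.8, 16.1 and 14.8 TPM to 33.0, 31.6 and 40.5 TPM (log2 1.16 ± 0.10, adjusted p = 0.000184), and SNHG15 from 31.0, 27.2 and 32.2 TPM to 61.9, 64.4 and 66.1 TPM (log2 1.09 ± 0.07, adjusted p = 5.58e-05). Both genes had a log2 fold change near 1 or above it in each cell line. SNHG12, with 7.22, 6.67 and 7.57 TPM in shARF and 12.1, 14.3 and 16.0 TPM in Both, rose by a log2 of 0.96 ± 0.12 (adjusted p = 0.000688). SNHG5 rose from 29.9, 25.7 and 26.0 TPM to 41.3, 37.5 and 51.5 TPM (log2 0.66 ± 0.13, adjusted p = 0.00547). The groups did not overlap in either gene. SNHG26 rose from 3.95, 3.84 and 3.93 TPM to 4.73, 5.84 and 6.004 TPM (log2 0.48 ± 0.11, adjusted p = 0.0113), SNHG3 from a mean of 28.7 to 46.0 TPM and SNHG11 from 22.0 to 32.5 TPM. SNHG9, with 11.4, 10.999 and 13.0 TPM in shARF and 15.5, 13.5 and 16.7 TPM in Both, was called at an adjusted p of 0.0234 (log2 0.36 ± 0.10), which was lost without shARF replicate 1 or 3 or Both replicate 2 or 4.

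The same 3 members fell as in the control cells. DANCR had 81.2, 81.1 and 83.4 TPM in shARF and 35.2, 30.0 and 29.3 TPM in Both (0.384-fold, log2 -1.38 ± 0.08, adjusted p = 2.92e-05). SNHG14 had 7.88, 7.43 and 7.69 TPM against 3.19, 3.31 and 2.83 TPM (0.413-fold, log2 -1.28 ± 0.09, adjusted p = 7.43e-05), and SNHG28 had 4.59, 5.34 and 4.38 TPM against 2.096, 1.94 and 1.40 TPM (0.389-fold, log2 -1.36 ± 0.18, adjusted p = 0.000986). All Both libraries of the 3 genes lay below all shARF libraries. The fourth called lower was SNHG10, a scaRNA host, from a mean of 13.1 to 10.9 TPM (log2 -0.25 ± 0.08, adjusted p = 0.0412), and that call was lost without shARF replicate 1 or 5 or Both replicate 2 or 3, under rescaling and under 3 other alternatives. Members called in neither drug comparison were SNHG16, SNHG19, SNHG21 and SNHG25. SNHG16 had 292, 302 and 321 TPM in shARF and 332, 318 and 297 TPM in Both, and SNHG19 58.9, 62.2 and 65.4 TPM against 48.6, 42.2 and 73.9 TPM, with overlap in both genes. Libraries did not overlap for 15 members that were higher and 4 that were lower, against 30.6% and 36.5% of all genes.

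Across the 2 drug comparisons, 13 members rose in both and 3 fell in both, against 22% and 22.8% of all genes tested. SNHG17, SNHG20, SNHG4 and SNHG7 were called higher in MLN vs Ctrl and not in Both vs shARF, and ZFAS1 (higher) and SNHG10 (lower) the reverse. The difference between the cell lines itself, tested as the interaction, was not called for SNHG17 (adjusted p = 0.156) or SNHG10 (adjusted p = 0.235). Under rescaling SNHG4 (adjusted p = 0.039) and SNHG17 (adjusted p = 0.0411) were also called higher in Both vs shARF, as was SNHG17 without Both replicate 3 (adjusted p = 0.032). The log2 fold changes of the 26 members in the 2 comparisons were correlated with r = 0.774 (Pearson) and rho = 0.529 (Spearman), as a description over genes of the same libraries. In MLN vs Ctrl, 23 of the 26 log2 values were above 0, and 20 in Both vs shARF. The plot of the responses sets both values of each member against each other.

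**Figure D3:**
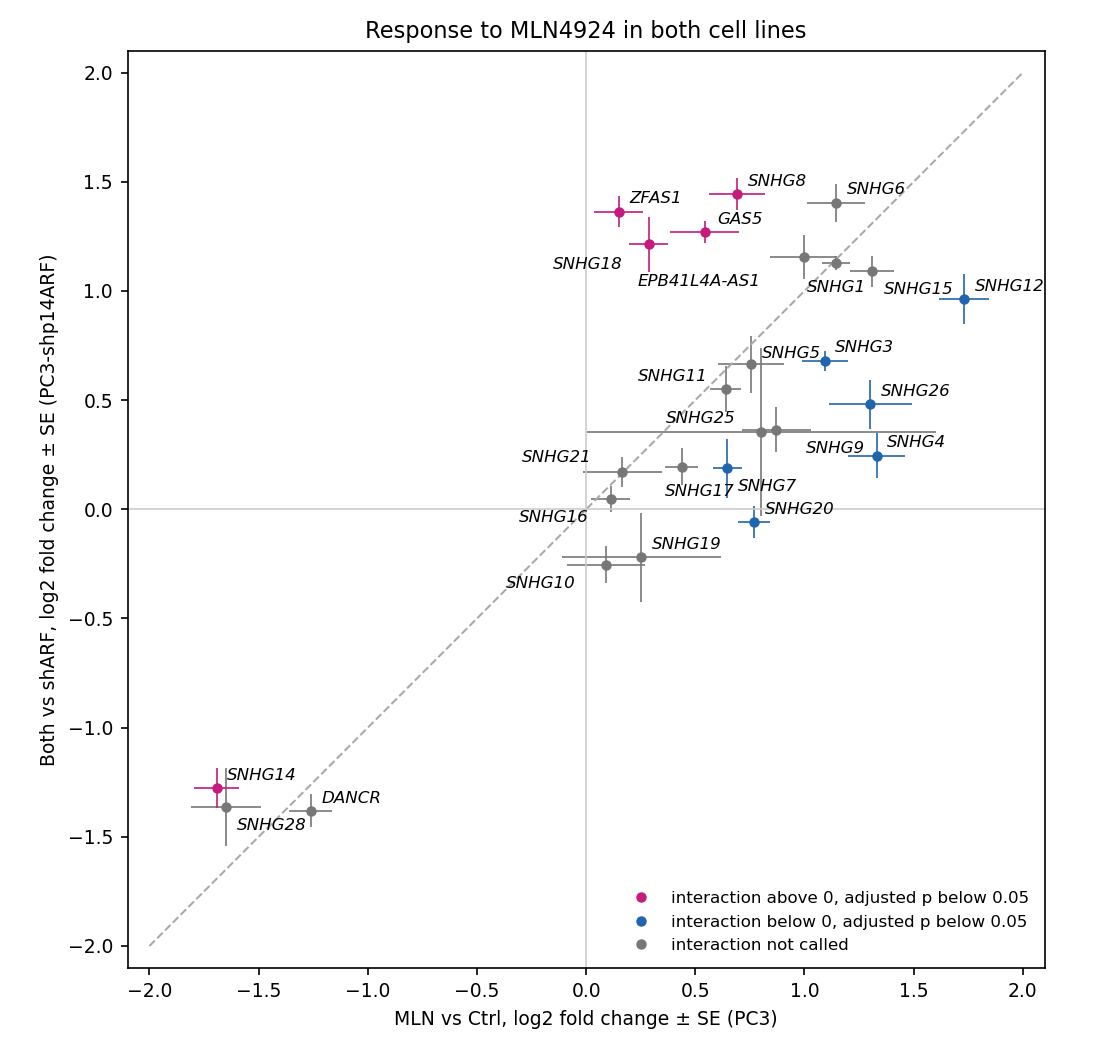
Log2 fold change ± SE of the 26 tested members in MLN vs Ctrl (horizontal) and Both vs shARF (vertical), both axes on the log2 scale, with the dashed line marking equal values. Colours mark an interaction at an adjusted p below 0.05. ZFAS1, SNHG8, GAS5 and SNHG18 lie above the line, SNHG12, SNHG4, SNHG26 and SNHG20 below it, and DANCR, SNHG14 and SNHG28 form the group at lower left.

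Whether the response to MLN4924 differed between the cell lines was tested directly by the interaction, the log2 fold change of Both vs shARF minus that of MLN vs Ctrl, fitted to all 12 libraries. It was called for 11 of the 26 members, 5 above 0 and 6 below 0, against 11.2% and 17.1% of all genes tested. Under median-of-ratios scaling the split over all genes was 3208 above 0 and 2800 below 0, in place of 2229 and 3416. ZFAS1 had the largest positive value, 1.21 ± 0.14 (adjusted p = 6.05e-05), followed by SNHG18 at 0.93 ± 0.15 (adjusted p = 0.000864), SNHG8 at 0.75 ± 0.15 (adjusted p = 0.00293) and GAS5 at 0.73 ± 0.17 (adjusted p = 0.00676). These genes had a larger log2 fold change after MLN4924 in the depleted cells, and GAS5, SNHG8 and SNHG18 were called higher in both comparisons. For SNHG18 this holds for the fold change and not for the rise in TPM. Its mean went from 10.3 to 12.6 TPM in the control cells and from 1.42 to 3.44 TPM in the depleted cells. The interaction calls of SNHG8 and GAS5 were lost when the library number was added as a block (limma, adjusted p = 0.071 and 0.155). SNHG14 fell less in the depleted cells (interaction 0.42 ± 0.14, adjusted p = 0.0495), and that call was lost without any 1 of 11 of the 12 libraries, the exception being Both replicate 4.

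The members below 0 were led by SNHG4 at -1.08 ± 0.17 (adjusted p = 0.000647). In the depleted cells SNHG4 had 8.58, 8.88 and 7.09 TPM in shARF and 9.17, 10.1 and 9.78 TPM in Both, a log2 difference of 0.25 ± 0.10 that was not called (adjusted p = 0.0824). SNHG20 had an interaction of -0.83 ± 0.11 (adjusted p = 0.00019), since its levels in shARF, 18.4, 20.4 and 21.9 TPM, and in Both, 19.0, 19.3 and 19.9 TPM, overlapped. All 6 of these libraries lay above the Ctrl libraries of SNHG20. SNHG26 at -0.82 ± 0.23 (adjusted p = 0.0176) and SNHG12 at -0.77 ± 0.17 (adjusted p = 0.00485) rose in both lines but less in the depleted cells. SNHG3 at -0.41 ± 0.12 (adjusted p = 0.0236) and SNHG7 at -0.46 ± 0.15 (adjusted p = 0.0446) completed the 6. The SNHG3 call was lost under rescaling and without shARF replicate 1 or 5, and the SNHG7 call under rescaling and without any 1 of 10 of the 12 libraries (all but shARF replicate 3 and Both replicate 4).

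shARF was compared with Ctrl to describe the depleted cells without drug. Of the members, 6 were higher and 5 lower, against 21% and 20.4% of all genes tested, shares near the background, and the median log2 fold change was 0.22, against 0 over all genes. SNHG18, a host of 1 box C/D snoRNA, differed most by far. Its Ctrl libraries held 11.5, 10.3 and 9.27 TPM and its shARF libraries 1.45, 1.35 and 1.46 TPM, a fall to 0.147-fold (log2 -2.77 ± 0.10, adjusted p = 8.44e-05). It was the 1 member beyond 1 on the log2 scale in this comparison, where 6.6% of all genes were that much lower and 3.87% that much higher. Libraries did not overlap for 11 members that were higher and 5 that were lower, against 27.3% and 25.8% of all genes. ZFAS1 was lower, 322, 382 and 377 TPM against 260.5, 262 and 229 TPM (log2 -0.52 ± 0.09, adjusted p = 0.00849), as was SNHG28, 8.50, 6.46 and 8.02 TPM against 4.59, 5.34 and 4.38 TPM (log2 -0.67 ± 0.14, adjusted p = 0.0145). Neither gene had overlapping groups, but SNHG28 was not called without Ctrl replicate 3 or shARF replicate 1 or 5. SNHG11 had a log2 fold change of -0.30 ± 0.06 (adjusted p = 0.0128) and SNHG8 one of -0.19 ± 0.05 (adjusted p = 0.0285), the latter call being lost without any 1 of the Ctrl libraries or shARF replicates 1 and 3.

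SNHG20 led the members that were higher in shARF, with 13.2, 12.4 and 12.5 TPM in Ctrl and 18.4, 20.4 and 21.9 TPM in shARF (log2 0.67 ± 0.07, adjusted p = 0.00181). SNHG5 had 16.8, 21.7 and 19.2 TPM in Ctrl and 29.9, 25.7 and 26.0 TPM in shARF (log2 0.50 ± 0.11, adjusted p = 0.0202). SNHG1 (log2 0.40 ± 0.06, adjusted p = 0.00379) and DANCR (log2 0.40 ± 0.04, adjusted p = 0.00146) were also higher, each without overlap. SNHG9 (adjusted p = 0.0496) and SNHG3 (adjusted p = 0.0476) were barely called. SNHG5 lost its call without Ctrl replicate 3 or shARF replicate 1 or 5, SNHG3 without Ctrl replicate 3 or any 1 of the shARF libraries, and SNHG9 without Ctrl replicate 1 or 3 or any 1 of the shARF libraries. With Ctrl replicate 3, shARF replicate 1 or shARF replicate 5 left out, 3 members were called higher, and with Ctrl replicate 3 or shARF replicate 1 left out, 3 lower. GAS5 did not separate (log2 -0.13 ± 0.09, adjusted p = 0.317), nor did EPB41L4A-AS1 (log2 -0.18 ± 0.12, adjusted p = 0.313).

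Both and MLN, the drug-treated cells with and without the hairpin, share their libraries with the comparisons above. Of the members, 6 were higher and 5 lower in Both, against 11.8% and 20.6% of all genes tested. Rescaling gave 7 and 3 members and changed the split over all genes from 2352 higher and 4112 lower to 3655 and 3474. The calls that held under every alternative were ZFAS1, SNHG1, SNHG18 and SNHG4. ZFAS1 had 457, 370.5 and 372 TPM in MLN and 673, 607 and 651 TPM in Both (log2 0.69 ± 0.10, adjusted p = 0.0053), and SNHG1 had 166, 160 and 153 TPM against 204, 211 and 209.6 TPM (log2 0.39 ± 0.05, adjusted p = 0.00341). SNHG18 had 12.6, 12.3 and 12.9 TPM against 3.15, 3.89 and 3.29 TPM (log2 -1.84 ± 0.10, adjusted p = 0.000379), and SNHG4 had 16.9, 14.3 and 16.6 TPM against 9.17, 10.1 and 9.78 TPM (log2 -0.71 ± 0.09, adjusted p = 0.00291). None of the 4 had overlapping groups. Over the 26 members, libraries did not overlap for 7 that were higher and 6 that were lower, against 18.8% and 28.9% of all genes.

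The other called members of Both vs MLN depended on individual libraries. SNHG14 (log2 0.56 ± 0.12, adjusted p = 0.015) lost its call without MLN replicate 2 or Both replicate 2, and SNHG26 (log2 -0.56 ± 0.12, adjusted p = 0.0191) without MLN replicate 1 or 2. GAS5 (log2 0.60 ± 0.14, adjusted p = 0.0231) and SNHG8 (log2 0.56 ± 0.14, adjusted p = 0.0274) each lost it without MLN replicate 2 or any 1 of the Both libraries. SNHG6 (log2 0.48 ± 0.14, adjusted p = 0.0436) lost it in addition without MLN replicate 5, SNHG12 (log2 -0.55 ± 0.15, adjusted p = 0.0337) without any 1 of the MLN libraries or Both replicates 2 and 3, and SNHG11 (log2 -0.39 ± 0.11, adjusted p = 0.0413) without any 1 of the MLN libraries or Both replicates 3 and 4. With MLN replicate 2 or Both replicate 2 left out, 2 members were called higher, and with Both replicate 3 or 4 left out, 3. With MLN replicate 1 or 2 left out, 2 were called lower, and with Both replicate 3 left out, 3.

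Summed over the members, the snoRNA host genes took up 1299, 1392 and 1336 TPM in the Ctrl libraries, 1999, 1817 and 1696 TPM in MLN, 1307, 1296 and 1321 TPM in shARF and 2275, 2179 and 2379 TPM in Both. The Both libraries were all above the MLN libraries, which were all above Ctrl and shARF. The mitochondrial share of TPM was 7.85% to 10.9% in Ctrl, 8.43% to 12.9% in MLN, 6.04% to 8.03% in shARF and 10.2% to 13.2% in Both. In Ctrl, MLN and Both the library with the highest sum of members also had the highest mitochondrial share, while in shARF it had the lowest, and the part of this share in the sums was not tested. MLN exceeded Ctrl by 495 TPM (1.37-fold), and Both exceeded shARF by 969.6 TPM (1.74-fold) and MLN by 440.3 TPM (1.24-fold). In an exact two-sided permutation test over 3 against 3 libraries, each gave p = 0.1, the smallest value this design allows, and Benjamini-Hochberg adjustment cannot lower it. shARF and Ctrl differed by -34.3 TPM (exact permutation p = 0.3). ZFAS1 weighed heavily: without it, Both exceeded shARF by 576 TPM and MLN by 197 TPM, and shARF exceeded Ctrl by 75.5 TPM in place of falling short of it.

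By the kind of snoRNA carried, the 10 box H/ACA hosts had 9 higher and 1 lower (DANCR) in MLN vs Ctrl, with a median log2 of 0.78, and the 9 box C/D hosts had 5 higher and 1 lower (SNHG14), with a median of 0.29 (all genes 32.2% higher and 29.4% lower). In Both vs shARF the box H/ACA hosts had 6 higher and 1 lower (median 0.46) and the box C/D hosts 6 higher and 1 lower (median 0.66), against 28.3% and 32.8% of all genes. GAS5 and SNHG12, which carry both kinds, rose in both comparisons. Of the 3 scaRNA hosts, SNHG20 alone was called in MLN vs Ctrl and SNHG10 alone in Both vs shARF. The 11 tested members with a pyrimidine start had 7 higher and 1 lower in MLN vs Ctrl (median log2 0.44), and the 11 with a promoter entry and no such start had 7 higher and 2 lower (median 0.64), with the same shares of all genes as above. In Both vs shARF the counts were 5 and 1 (median 0.25) and 6 and 3 (median 0.48). GAS5 and SNHG14 were placed among those without a pyrimidine start by the RefSeq start, which differs from that of GENCODE. The differences between these classes were not tested.

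The hosted snoRNAs themselves were hardly measured. Of the 141 snoRNA and scaRNA genes inside the members, 116 had a row of the same symbol, 108 of these were listed at 0 in all 12 libraries, and 8 had a mean of at least 0.1 TPM. SNORA71A and SNORA71B, both in introns of SNHG17, were the 2 with a mean of at least 1 TPM. SNORA71A, of 138 bases, had 3.50, 4.47 and 2.27 TPM in Ctrl and 4.40, 8.98 and 2.25 TPM in MLN. SNORA71B, of 136 bases, had 2.30, 2.75 and 1.12 TPM in Ctrl and 1.08, 3.32 and 2.22 TPM in MLN. Both overlapped between the groups, and 0 of the 8 were called by limma in any comparison (1 of 40 tests at an unadjusted p under 0.05). Over the whole table, 50 of 851 snoRNA and scaRNA rows had a mean of at least 0.1 TPM. The member values therefore describe the spliced or unspliced host transcript and not the snoRNAs cut from it, and their relation was not tested.

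Several members overlap another expressed gene, and the sources used here do not state whether reads were counted by strand, so reads from the overlap cannot be told apart. ZFAS1 overlaps 249 bases of ZNFX1 on the opposite strand, and ZNFX1 rose by a log2 of 0.87 in MLN vs Ctrl and 0.48 in Both vs shARF, where ZFAS1 had 0.15 and 1.36. SNHG8 overlaps PRSS12, which fell with log2 values of -0.63 and -0.23 while SNHG8 rose. SNHG4 lies within SIL1 on the opposite strand, which fell with log2 values of -1.86 and -1.23. It also lies within MATR3 on the same strand. MATR3 has no row of that symbol, so its level is not known. SNHG3 and RCC1 lie on the same strand, and RCC1 had 0.17 (not called) and -0.55 where SNHG3 had 1.09 and 0.68. SNHG20 shares its strand with SEC14L1, which rose by 0.70 and 0.90 where SNHG20 had 0.77 and -0.06. SNHG14 runs across UBE3A on the opposite strand, and UBE3A had -0.25 in MLN vs Ctrl and 0.11 in Both vs shARF, where SNHG14 had -1.69 and -1.28. On its own strand SNHG14 overlaps 141 bases of the more abundant SNRPN (mean of 119.7 TPM). SNRPN also fell in both, with log2 values of -0.69 and -0.46. SNHG16 overlaps ST6GALNAC2, which fell with log2 values of -0.73 and -2.38 while SNHG16 was not called, and SNHG10 overlaps GLRX5, which fell with log2 values of -0.30 and -0.57.

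The other genes of the pathway were described from lists. The protein-coding snoRNA hosts are 45 genes that carry snoRNAs in their introns, among them ribosomal protein, translation factor, chaperone and nucleolar protein genes. They moved mostly the other way from the noncoding hosts: 6 rose and 24 fell in MLN vs Ctrl (median log2 -0.23), against 32.2% and 29.4% of all genes, and 5 rose and 29 fell in Both vs shARF (median -0.41), against 28.3% and 32.8%. In MLN vs Ctrl the chaperone HSPA8 had a log2 fold change of -1.32 ± 0.12 (adjusted p = 0.000226) and the ribosome-associated RACK1 -0.98 ± 0.11 (adjusted p = 0.000408), while the mitochondrial chaperone HSPA9 had 0.74 ± 0.07 (adjusted p = 0.000244) and RABGGTB 0.61 ± 0.10 (adjusted p = 0.00217). In Both vs shARF the nucleolar protein NCL had -1.34 ± 0.06 (adjusted p = 1.15e-05). In shARF vs Ctrl, 30 of the 45 were higher and 1 lower (EIF4A1, log2 -0.25), against 21% and 20.4% of all genes, with NCL at 0.60 and RPL23 at 0.58.

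**Figure D4:**
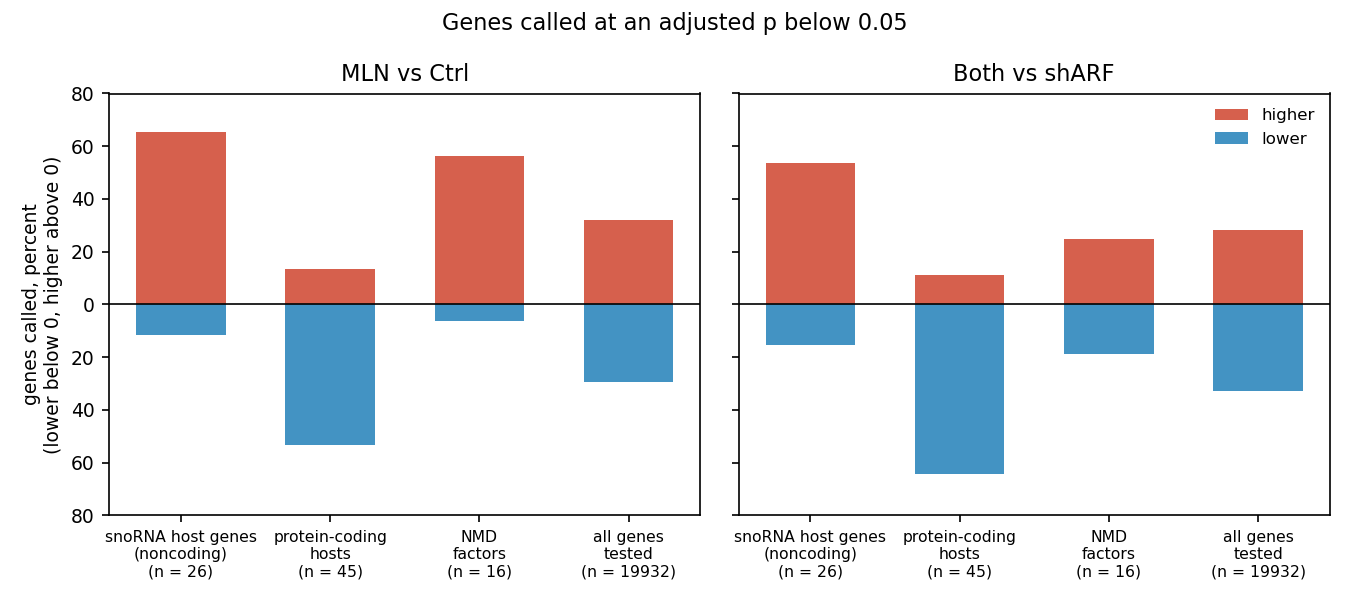
Percent of genes called higher (above 0) and lower (below 0) at an adjusted p below 0.05 in MLN vs Ctrl and Both vs shARF, for the 26 tested noncoding snoRNA host genes, 45 protein-coding hosts, 16 NMD factors and all 19932 genes tested. The noncoding hosts reach 65.4% and 53.8% higher, and the protein-coding hosts 53.3% and 64.4% lower.

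The proteins that bind the snoRNAs are read against the same shares of all genes, 32.2% higher and 29.4% lower in MLN vs Ctrl and 28.3% and 32.8% in Both vs shARF. Of the 4 box C/D core proteins (FBL, NOP56, NOP58 and SNU13), 1 rose and 2 fell in MLN vs Ctrl, with NOP56 at -0.62 and NOP58 at -0.51, and all 4 fell in Both vs shARF, with NOP58 at -1.06 and NOP56 at -0.83. Of the 4 box H/ACA core proteins, NOP10 rose in both comparisons (log2 0.88 and 0.67) and the other 3 fell, with NHP2, for example, at -0.43 and -0.94. NOP56 and the box H/ACA protein DKC1 are also counted among the protein-coding hosts, so these lists are not separate. Among 11 assembly factors, 5 rose and 3 fell in MLN vs Ctrl and 1 rose and 5 fell in Both vs shARF, so that the 27.3% lower in MLN vs Ctrl was near the background. The AAA+ ATPase RUVBL1, part of the assembly machinery, fell with log2 values of -1.09 and -1.13 and SHQ1 with -0.55 and -0.89. The largest rises among the assembly factors in MLN vs Ctrl were TCOF1 (log2 0.64 ± 0.13, adjusted p = 0.00602) and PIH1D1 (log2 0.52 ± 0.07, adjusted p = 0.00116). The median log2 of the 11 was 0.11 in MLN vs Ctrl and -0.25 in Both vs shARF, where the highest value was 0.18. In shARF vs Ctrl, 3 of the 4 box C/D proteins, 3 of the 4 box H/ACA proteins and 8 of the 11 assembly factors were higher, against 21% of all genes, and 0 were called lower by limma, also at an unadjusted p under 0.05.

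Of 16 NMD factors, 9 rose and 1 fell in MLN vs Ctrl (56.2% and 6.25%, against 32.2% and 29.4% of all genes). In Both vs shARF 4 rose and 3 fell, and the 25% higher was near the 28.3% of all genes. The decapping adaptor PNRC2 (log2 1.08 and 0.60) and the decay adaptor SMG5 (0.87 and 0.58) rose in both, and UPF2, which bridges UPF1 and UPF3, fell in both (-0.67 and -0.59). For the interaction, 7 NMD factors were called below 0 and 0 above (11 and 0 by limma at an unadjusted p under 0.05), against 11.2% above and 17.1% below over all genes, whose split turned under rescaling as given above. The lowest value was that of EIF4A3 at -0.78 ± 0.09 (adjusted p = 5.89e-05). Of 11 genes that act on TOP mRNAs through mTOR, 1 rose and 8 fell in MLN vs Ctrl and 2 rose and 8 fell in Both vs shARF. Over all genes, 29.4% and 32.8% were lower. The mTORC1 subunit RPTOR fell most, at -1.80 and -1.68, and TSC1 was the 1 that rose in MLN vs Ctrl (log2 0.32). The list was not split into activators and inhibitors of mTOR, so these counts give no direction of mTOR activity. Of 9 tested genes for intron debranching and snoRNA trimming, 0 rose in either drug comparison, 5 fell in MLN vs Ctrl and 6 in Both vs shARF (55.6% and 66.7%, against the same 29.4% and 32.8%), and the counts were the same by limma at an unadjusted p under 0.05. The trimming nuclease PARN fell most, with log2 values of -1.26 and -1.08.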

How the data were processed

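RNA-seq of PC3 and p14ARF-depleted PC3 cells was analysed from 1 deposited table of 12 libraries. In CLC Genomics Workbench (default settings), adapters were trimmed, hg38 was used as the reference and genes of the Ensembl annotation were quantified. The authors deposited TPM values, unfiltered and not pooled. Each column sums to 1000000 over 43622 genes. The strandedness, read layout and read depth are not given in the sources used here. Because TPM are relative, a change in abundant genes shifts the values of all others, and no count test was possible from them.

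Libraries were grouped by the condition in their column names, matched to the sample titles. Tests covered the 19932 genes that averaged 0.1 TPM or more and used log2(TPM + 0.1) in limma 3.58.1 under R 4.3.3 (linear model, empirical Bayes with a mean-variance trend), with each pair of conditions fitted to its own 6 libraries and the interaction to all 12. P-values were adjusted over all of these genes by Benjamini and Hochberg's method and called under 0.05. Fold changes are on the log2(value + 0.1) scale, which understates the change of low genes. SE is limma's moderated standard error. The script was tested on simulated data. Summed TPM was compared by an exact permutation test (SciPy 1.17.1).

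Gene positions came from GENCODE v44, another release than the authors used, and snoRNA positions and promoters from RefSeq GRCh38.p14, with rows matched by symbol. Per-library values are given for GAS5, EPB41L4A-AS1, ZFAS1, DANCR, members averaging 50 TPM or more and the 3 largest called changes in each direction of each comparison. List genes given with values were taken from the 2 largest changes each way, and not all of these are named. SNHG3, SNHG7, SNHG10, SNHG11, SNHG17, SNHG21 and SNHG25 fall outside that rule and were named after their values were seen. The members and lists were chosen with earlier results of these data known. The alternatives were other pseudocounts and filters, rescaling, eBayes without trend, a fit on all libraries, a block on the library number and leaving out each library.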

Additional observations from a re-analysis of the deposited data

Results flagged for a closer look

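The response to MLN4924 differed between control and p14ARF-depleted PC3 cells, by the interaction term in limma, for 11 of the 26 snoRNA host genes tested, 5 above 0 and 6 below 0, against 11.2% and 17.1% of all genes tested. On the log2 scale the interaction was 1.21 for ZFAS1, 0.93 for SNHG18, 0.75 for SNHG8, 0.73 for GAS5 and 0.42 for SNHG14, which means a higher fold change in the depleted cells. It was -1.08 for SNHG4, -0.83 for SNHG20, -0.82 for SNHG26, -0.77 for SNHG12, -0.46 for SNHG7 and -0.41 for SNHG3. ZFAS1 was not called in the control cells and had its highest values in the 3 Both libraries, whereas SNHG20 was already higher in shARF than in Ctrl before the drug. The calls of ZFAS1, SNHG18, SNHG4, SNHG20, SNHG26 and SNHG12 held under every alternative that was run. With 3 libraries per condition, a search for single outlying libraries was not made.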

How the results depend on the processing

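The table gives no counts, so depth sets no stated limit, and 3 libraries per condition limit the precision. Over the 26 members and 5 comparisons, 1898 values were recomputed under alternatives: 1723 stayed on their side of the threshold (uncalled values among them could change sign), 141 lost the call, 34 gained it and 0 called values reversed. With the library number as a replicate block, 10 members were called higher in MLN vs Ctrl (15 at an unadjusted p under 0.05), 0 higher and 0 lower in shARF vs Ctrl (4 and 5 unadjusted; over all genes also 0 and 0) and 2 above 0 in the interaction. Same-numbered libraries did not deviate together (r from -0.046 to 0.022), so the numbers were not treated as pairs, and Both shares too few numbers with shARF and with MLN for such a fit. In Both vs MLN, no filter on low values gave 3 higher and 3 lower, median-of-ratios scaling 3 lower and eBayes without trend 3 lower. With the block, MLN vs Ctrl had 3047 genes higher and 2661 lower, in place of 6420 and 5863, and the interaction had 1493 and 1612, in place of 2229 and 3416. Under the scaling the all-gene median of Both vs MLN and of the interaction moved from -0.08 and -0.09 to 0.00 and 0.01, and uncalled SNHG20 (Both vs shARF), EPB41L4A-AS1, SNHG21, SNHG9 and SNHG17 (Both vs MLN) and SNHG5, SNHG1, SNHG16 and SNHG11 (interaction) changed sign.

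Leaving out 1 library at a time gave 15 to 17 members higher and 3 lower in MLN vs Ctrl, 13 to 16 and 3 to 5 in Both vs shARF, 3 to 8 and 3 to 5 in shARF vs Ctrl, 2 to 6 and 2 to 5 in Both vs MLN, and 4 to 5 and 4 to 7 in the interaction. The summed TPM differences then ranged from 414 to 566 (MLN vs Ctrl), 919 to 1019 (Both vs shARF), -56.2 to -9.34 (shARF vs Ctrl) and 369.7 to 521 (Both vs MLN). Scaling moved the sum to 1099 in Both vs shARF and 576 in Both vs MLN. Leaving out ZFAS1 moved it to 576 and 197 and reversed shARF vs Ctrl to 75.5. The cause of these changes was not tested.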
